A study of Mus musculus with 12 samples.

Results

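The heme oxygenases, the biliverdin reductases and the BACH1 and NRF2 regulators were followed as 10 genes, taken from the tables by symbol: Hmox1, Hmox2, Blvra, Blvrb, Bach1, Nfe2l2, Nfe2l1, Keap1, Mafk and Mafg. Each was found in every library, as 10 of the 55487 rows of the expression tables, and all 10 passed the filter on low values. The cells were G1E-ER4, a mouse erythroid progenitor line without functional Gata1 of its own, in which a fusion of GATA1 with the estrogen receptor is switched on by estradiol and drives maturation. All 4 groups received 100 nM β-estradiol for 24 h and held 3 libraries each, called biological replicates: control cells, cells with 50 µM DTPA (a metal chelator used here to make zinc scarce), cells with 50 µM DFO (an iron chelator), and cells with 0.2 mM SA (used to block ALAD, an enzyme of heme synthesis). The protocol text names DFO for the ALAD group as well, whereas its titles and treatment tags name SA, and the titles were followed. All groups come from this 1 line, and nothing in the labels tells whether the replicates were separate cultures, so p-values here reflect library-to-library spread, which may be technical.

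Heme oxygenases open the heme ring to release iron, carbon monoxide and biliverdin, which biliverdin reductase A turns into bilirubin. BACH1 pairs with a small MAF protein on antioxidant and Maf recognition elements and represses genes such as Hmox1, and heme binding removes it from DNA and leads to its degradation. NRF2 (Nfe2l2) pairs with the same small MAF proteins and activates these genes, while KEAP1 directs NRF2 to degradation; NRF1 (Nfe2l1) is a related activator best known for proteasome genes. In maturing red cells these factors connect the heme supply with globin, ferritin and antioxidant genes.

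Promoter windows of 250 bases before to 50 bases after each RefSeq start site (GRCm38.p6) were matched for 9 of the 10 genes, Hmox1 being the other, and for 21 of 27 listed BACH1 and NRF2 target genes. The windows that hold the antioxidant response element core TGACNNNGC, where N is any base, are all shown, for 4 member genes and 8 targets, because BACH1 and NRF2 are both known to bind this element. Capitals mark the core, read on either strand, and each sequence is written 5′ to 3′ on the strand of the gene.
Nfe2l2, chr2:75704865-75704913, minus strand: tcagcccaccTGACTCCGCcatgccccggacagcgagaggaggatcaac
Blvra, chr2:127070578-127070646, plus strand: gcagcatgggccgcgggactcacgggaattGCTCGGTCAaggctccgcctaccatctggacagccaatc
Mafk, chr5:139791493-139791535, plus strand: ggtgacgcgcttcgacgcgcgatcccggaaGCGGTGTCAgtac
Mafg, chr11:120633731-120633797, minus strand: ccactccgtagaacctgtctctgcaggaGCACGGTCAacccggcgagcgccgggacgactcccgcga
Gclm, chr3:122245393-122245461, plus strand: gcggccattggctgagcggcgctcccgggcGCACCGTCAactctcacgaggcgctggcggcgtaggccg
Txnrd1, chr10:82859084-82859152, plus strand: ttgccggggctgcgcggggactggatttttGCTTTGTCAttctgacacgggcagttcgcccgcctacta
G6pdx, chrX:74428899-74428967, minus strand: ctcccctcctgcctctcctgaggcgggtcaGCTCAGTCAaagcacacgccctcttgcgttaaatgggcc
Prdx1, chr4:116685436-116685504, plus strand: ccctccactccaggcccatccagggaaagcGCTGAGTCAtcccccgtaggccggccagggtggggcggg
Srxn1, chr2:152105542-152105570, plus strand: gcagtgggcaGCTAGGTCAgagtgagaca
Pgd, chr4:149166061-149166089, minus strand: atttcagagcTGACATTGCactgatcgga
Me1, chr9:86695902-86695930, minus strand: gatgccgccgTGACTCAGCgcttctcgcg
Mgst1, chr6:138140441-138140509, plus strand: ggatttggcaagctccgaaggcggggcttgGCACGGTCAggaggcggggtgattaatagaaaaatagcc

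Counted in bases from the start site, the core began at -240 in Nfe2l2, -49 in Blvra, -13 in Mafk and -222 in Mafg. It was present in 4 of 16 member windows and 8 of 28 target windows, against 12.4% of all 32851 windows. In all, 7 patterns were searched on both strands, 2 of them being the reverse complement of each other, and the one shown was chosen after the matches were seen. A looser pattern, TGA and GCA separated by any 4 bases, can overlap the core and was in 6 of 16 member and 7 of 28 target windows, against 13.0% of all. TGAGTCA was in 0 of 16 member windows and 5 of 28 target windows, against 5.20% of all. GCTGAGTCA was in 0 of 16 and 2 of 28 (0.454% of all). The same letters preceded by T, searched also as their reverse complement, were in 0 of 16 and 0 of 28 (0.155% of all), as were those letters followed by a further T (0.0335% of all). These matches describe letters in the windows and not binding.

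Values below are TPM, transcript abundance per length scaled to a fixed total, and log2 changes are differences of mean log2(TPM + 1). The libraries held 19857428 to 24326310 reads recovered from the TPM steps. With DTPA 65.5% of the 11917 tested genes passed an adjusted p of 0.05 against control, with DFO 10.7% and with SA 22.2%. The median log2 change of all tested genes was -0.11 with DTPA, and scaling by the median of ratios moved it by 0.12, so a DTPA change near 0.1 has a direction only relative to the scaling. For DFO and SA that scaling moved the median by -0.05. As deposited, 2796 genes were higher and 5014 lower with DTPA, and 3842 and 3859 after that scaling. For DFO the split went from 1000 higher and 272 lower to 423 and 646, and for SA from 1838 and 804 to 1124 and 1624. The erythroid label was checked against 10 markers, whose summed level was 39206 to 43582 TPM in control, 44197 to 53984 with DTPA, 28904 to 31302 with DFO and 23805 to 25758 with SA. Of these 10, 2 were called higher and 6 lower with DTPA, where 65.5% of all tested genes were called. With DFO 1 was higher and 5 lower (10.7% of all called), and with SA 0 and 7 (22.2%). Gata1 RNA had means of 2501 TPM in control, 1058 with DTPA (log2 change -1.24), 2230 with DFO and 2126 with SA. Whether its reads came from the fusion was not tested. Of 10 macrophage and myeloid markers, 6 were at 0 in every library (Adgre1, Itgam, Lyz2, Mpo, Cd14 and Marco), and the sum never passed 3.61 TPM in any library. The summed level of 8 megakaryocyte markers was 8.23 to 9.34 TPM in control, 36.5 to 45.8 with DTPA, 10.3 to 10.9 with DFO and 8.27 to 9.87 with SA. Of these, Ppbp was at 0 in every library, and the rise with DTPA lay mainly in Gp1ba (4.30 to 18.5 TPM) and Itgb3 (2.15 to 17.0 TPM). Of 6 mast cell markers, Hdc had 0.206 to 0.281 TPM in control and 2.34 to 3.01 with DTPA, while Cpa3, Ms4a2, Tpsb2, Mcpt8 and Cma1 were at or near 0 (at most 0.155 TPM) in every library. The part of Gata1, the megakaryocyte markers and Hdc in the DTPA results was not tested.

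**Figure D1:**
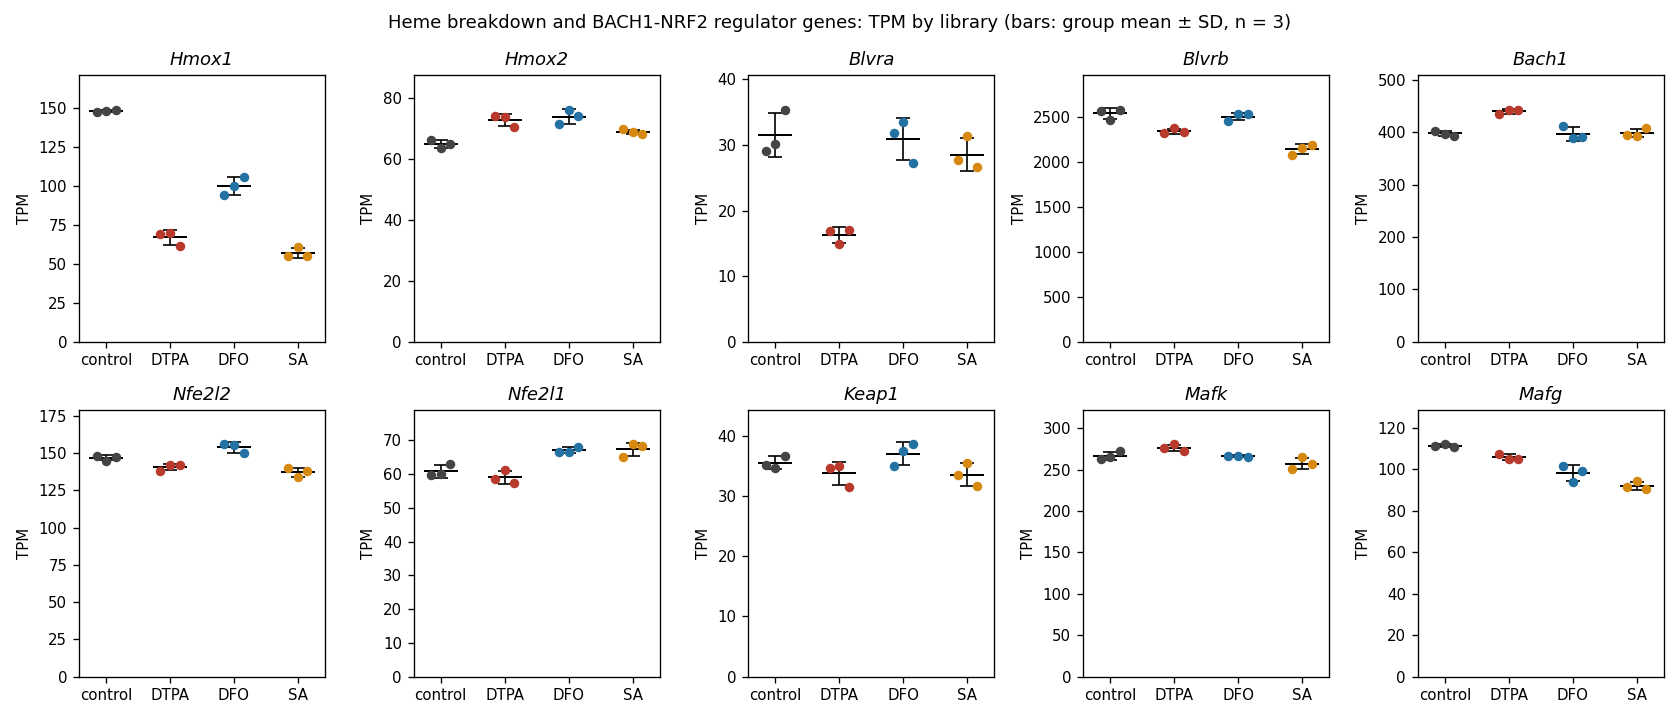
TPM of the 10 genes in each library, 1 panel a gene, with the y axis in TPM starting at 0; points are libraries and bars are the group mean ± SD (n = 3). The control libraries of Hmox1 lie between 147 and 149 TPM, above all 9 treated libraries, and Blvra is lowest in the DTPA group, at 14.9 to 17.0 TPM.

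Hmox1, the inducible heme oxygenase (chr8:75093621-75100589, mm10), fell with each treatment. Its levels were 147, 148 and 149 TPM in the control libraries, 68.9, 69.9 and 61.5 with DTPA, 94.2, 100.0 and 105 with DFO, and 55.2, 60.7 and 55.2 with SA. No treated library reached the lowest control library, and the DTPA and DFO libraries did not overlap either. The group mean fell from 148 ± 0.718 TPM (SD, n = 3) to 66.8 ± 4.62 with DTPA, 99.9 ± 5.61 with DFO and 57.1 ± 3.18 with SA. These are levels 2.22-fold, 1.48-fold and 2.59-fold lower than control, with log2 changes of -1.14 (SE 0.06, adjusted p = 4.77e-09), -0.56 (SE 0.06, adjusted p = 0.000144) and -1.36 (SE 0.06, adjusted p = 5.9e-08). The order was control, DFO, DTPA and SA from high to low, and each neighbour in it differed: DTPA lay 0.57 below DFO on the log2 scale (-0.57, adjusted p = 2.15e-06) and 0.22 above SA (adjusted p = 0.00368), a gap of 0.41 after either scaling. All 3 comparisons use the same control libraries. In a bulk sample, fewer cells that express a gene and less RNA per cell cannot be told apart.

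Hmox2, the constitutive heme oxygenase, was slightly higher with DTPA and DFO. It had 66.2, 63.4 and 64.8 TPM in control, 74.1, 73.7 and 70.4 with DTPA, 71.3, 76.1 and 73.9 with DFO, and 69.6, 68.8 and 68.2 with SA. As deposited, every treated library was above every control library. The rise passed the test with DTPA (log2 change 0.16, SE 0.03, adjusted p = 0.000478) and with DFO (0.18, SE 0.03, adjusted p = 0.00318) and missed it with SA (0.09, SE 0.03, adjusted p = 0.0608, 95% interval 0.02 to 0.15). After median-of-ratios scaling the changes were 0.30 with DTPA and 0.13 with DFO, both still called, and 0.03 with SA. The difference between DTPA and DFO did not pass as deposited (-0.02, interval -0.09 to 0.05), and scaling by the median of ratios turned that difference to 0.17. In the annotation 892 of the 2217 exon bases of Hmox2 overlap Cdip1 on the opposite strand; the kit marks strand, but whether counting used it is not given in the sources used here.

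Within a library, Hmox1 made up 69.5% ± 0.503 (SD, n = 3) of the summed TPM of the 2 oxygenases in control libraries. The share was 47.8% ± 1.08 in DTPA, 57.5% ± 1.13 in DFO and 45.3% ± 1.41 in SA libraries. No treated group overlapped control in this share, which does not depend on how libraries are scaled. The 2-sided exact permutation test gave p = 0.1 for each, the smallest that 3 against 3 allows (adjusted p = 0.12 over 12 comparisons of ratios).

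Blvra, biliverdin reductase A (chr2:127070665-127097084), had 29.0, 30.2 and 35.4 TPM in control and 16.9, 14.9 and 17.0 with DTPA. The DFO libraries had 31.9, 33.6 and 27.3 and the SA libraries 27.6, 31.4 and 26.6, both overlapping control. With DTPA it was 1.94-fold lower than control (log2 change -0.91, SE 0.10, adjusted p = 4.67e-06). It was also lower with DTPA than with DFO (-0.88, adjusted p = 6.15e-06) and than with SA (-0.77, adjusted p = 1.91e-05). The changes with DFO (-0.03, 95% interval -0.24 to 0.18) and SA (-0.14, interval -0.35 to 0.07) did not pass the test. Blvra rests on the fewest reads of the set, 294 to 605 per library.

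Blvrb, biliverdin reductase B, which also reduces flavins and is abundant in red cells, was the most abundant of the 10 genes, at 2473 to 2584 TPM in control. It had 2321, 2375 and 2329 TPM with DTPA, 2458, 2529.8 and 2529 with DFO, and 2082, 2158 and 2194 with SA. All SA libraries lay below all control libraries, and the DFO libraries overlapped control. With SA it was 15.6% lower as a plain ratio (percent change -15.6, log2 change -0.25, SE 0.02, adjusted p = 3.29e-05). With DTPA the log2 change was -0.12 as deposited (adjusted p = 0.00104) but 0.01 after median-of-ratios or trimmed-mean scaling, so its direction depends on the scaling. Per unit of Blvra, Blvrb stood at 81.2 ± 7.77 in control and 145 ± 13.2 with DTPA, and at 81.8 ± 9.59 with DFO and 75.6 ± 6.91 with SA (SD, n = 3). As a share of both reductases Blvrb was 98.8% in control and 99.3% with DTPA, without overlap (exact permutation p = 0.1, adjusted p = 0.12).

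Bach1, the repressor (chr16:87698945-87733346), had 403, 397 and 393 TPM in control and 434, 443 and 443 with DTPA. It had 412, 389 and 390.4 with DFO and 395, 392 and 407 with SA. The DTPA libraries were above all the others, and the other groups overlapped. The DTPA rise was 10.6% (log2 change 0.14, SE 0.02, adjusted p = 0.000264), and under both scalings it was larger, at 0.28. The changes with DFO (95% interval -0.06 to 0.05, adjusted p = 0.954) and SA (-0.05 to 0.06, adjusted p = 0.973) did not pass, and the SA value, near 0 as deposited, was -0.06 after either scaling.

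Nfe2l2, the activator NRF2 (chr2:75675513-75704641), had 148, 145 and 147 TPM in control, 138, 142 and 142 with DTPA, 156, 156 and 149.9 with DFO, and 139.8, 134 and 138 with SA. The DTPA and SA libraries lay below control and the DFO libraries above it, each without overlap, within a span of 134 to 156 TPM. The change with SA was -0.10 (SE 0.02, adjusted p = 0.0128), and without SA replicate 2 the adjusted p was 0.0529. The change with DTPA was -0.06 (adjusted p = 0.0404), but 0.07 with the opposite sign after either scaling (adjusted p = 0.0093 and 0.011), and the call was lost without any 1 library other than control replicate 2. DFO did not pass (0.07, adjusted p = 0.102), while DFO and SA differed from each other (0.16, SE 0.02, adjusted p = 0.00098).

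Bach1 transcripts stood at 2.71 ± 0.0337 per Nfe2l2 transcript in control (TPM ratio, SD, n = 3). The ratio was 3.13 ± 0.0116 with DTPA, 2.58 ± 0.0770 with DFO and 2.91 ± 0.0677 with SA. It lay above control with DTPA and SA and below it with DFO, each without overlap and each with exact permutation p = 0.1 (adjusted p = 0.12). These are ratios of transcripts, and the proteins were not measured.

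**Figure D2:**
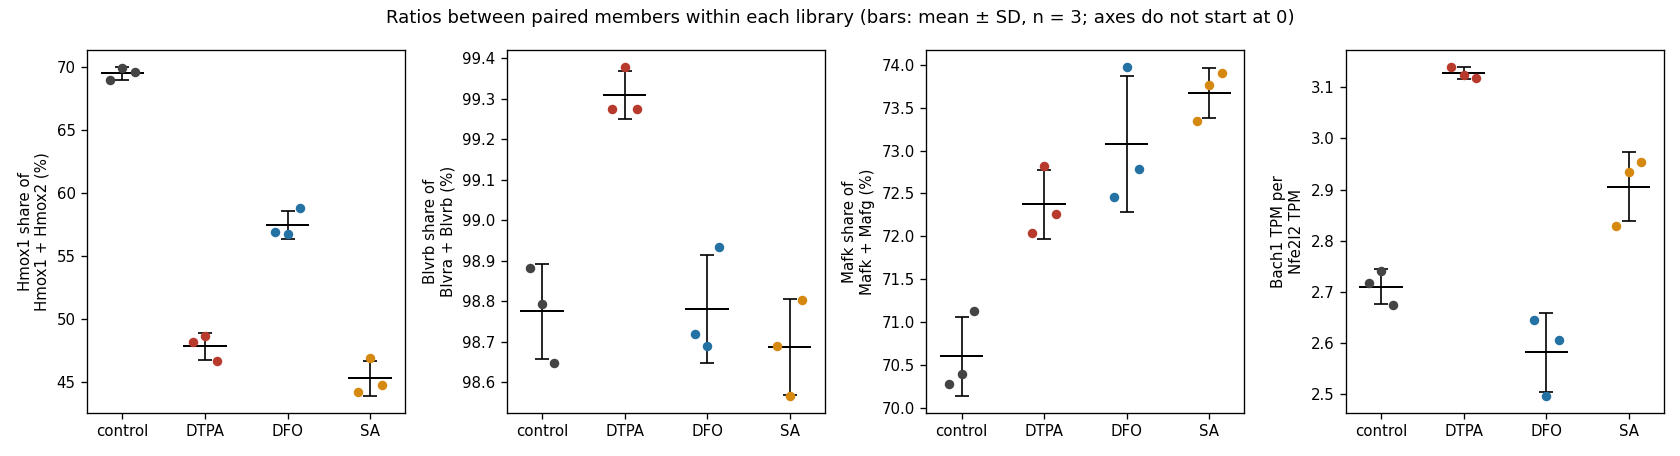
Ratios within each library for the oxygenase, reductase and small MAF pairs (percent of the pair's summed TPM) and for Bach1 per Nfe2l2; points are libraries, bars the mean ± SD (n = 3), and the axes do not start at 0. The Hmox1 share is highest in control, at 69.5%, and the Bach1 per Nfe2l2 ratio is highest with DTPA, at 3.13.

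Nfe2l1, the activator NRF1, had 59.7, 60.0 and 63.1 TPM in control, 58.7, 61.2 and 57.5 with DTPA, 66.6, 66.6 and 68.1 with DFO, and 65.2, 68.8 and 68.2 with SA. The DFO and SA libraries were above all control libraries, and the DTPA libraries overlapped control. It was higher with DFO (log2 change 0.14, SE 0.03, adjusted p = 0.0212) and SA (0.14, SE 0.03, adjusted p = 0.00867), but neither call held after median-of-ratios scaling (0.08 and 0.09, adjusted p = 0.156 and 0.0828). The DFO call was also lost without control replicate 1 or 2 or any 1 DFO library (adjusted p = 0.0503 to 0.073). With DTPA the change was -0.04 as deposited (adjusted p = 0.268) and 0.09 after either scaling (adjusted p = 0.035 and 0.038).

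Keap1, the adaptor that marks NRF2 for degradation, was called in none of the 6 comparisons as deposited. In DTPA against SA its difference of 0.01 became 0.19 and was called after either scaling (adjusted p = 0.0122). In DTPA against DFO (-0.13, adjusted p = 0.0519) it passed with a filter of 5 TPM (0.0433), without DTPA replicate 2 (0.0445) and without DFO replicate 1 (0.022). After either scaling Keap1 was instead 0.05 higher with DTPA than with DFO, and was not called (adjusted p = 0.449 and 0.457). Its means were 35.5 ± 1.05 TPM in control, 33.7 ± 1.90 with DTPA, 37.0 ± 1.89 with DFO and 33.6 ± 1.91 with SA, and the libraries of all groups overlapped. Against control the 95% intervals were -0.19 to 0.04 with DTPA, -0.06 to 0.17 with DFO and -0.20 to 0.04 with SA, and the DTPA value of -0.07 turned to 0.06 after median-of-ratios scaling.

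Mafg, a small MAF partner of BACH1 and NRF2 (chr11:120625117-120633600), had 111, 112 and 110.4 TPM in control, 107, 105 and 105 with DTPA, 101, 93.9 and 99.2 with DFO, and 91.2, 94.3 and 90.6 with SA. All treated libraries lay below all control libraries. The changes were -0.27 with SA (SE 0.03, adjusted p = 5.57e-05) and -0.18 with DFO (SE 0.03, adjusted p = 0.00283). With DTPA the change of -0.07 (adjusted p = 0.0413) turned to 0.06 after either scaling (adjusted p = 0.11 and 0.12), and the call was lost without any 1 library other than DTPA replicate 1. An annotated overlap with Sirt7 on the same strand covers 124 of its 5613 exon bases.

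Mafk, the more abundant small MAF gene, had 263, 266 and 272 TPM in control, 276, 281 and 273 with DTPA, 267, 267 and 265 with DFO, and 251, 265 and 257 with SA. None of its changes against control passed as deposited (DTPA 0.05, adjusted p = 0.0599; SA -0.05, adjusted p = 0.131). After median-of-ratios scaling the DTPA change was 0.18 (adjusted p = 4.51e-05) and the SA change -0.11 (adjusted p = 0.00884). As deposited, the DTPA change passed without control replicate 3 (adjusted p = 0.0369) and the SA change without SA replicate 2 (adjusted p = 0.046). Mafk made up 70.6% ± 0.464 of the summed Mafk and Mafg TPM in control, 72.4% ± 0.404 with DTPA, 73.1% ± 0.797 with DFO and 73.7% ± 0.292 with SA. Every treated library had a higher Mafk share than every control library (exact permutation p = 0.1, adjusted p = 0.12 each). Tmem184a on the opposite strand overlaps 169 of the 3901 exon bases of Mafk.

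Of the relatives in the same factor family, Nfe2, the erythroid partner of the small MAF proteins, had 522, 525 and 531 TPM in control, 543, 538 and 554 with DTPA, 469, 474 and 482 with DFO, and 622, 636 and 609 with SA. The 4 groups did not overlap. Nfe2 was higher with SA (0.24, SE 0.02, adjusted p = 8.77e-06) and lower with DFO (-0.15, SE 0.02, adjusted p = 0.00117). The DTPA change of 0.05 (adjusted p = 0.0387) missed the threshold without control replicate 1 or 2 or DTPA replicate 1 or 3 (adjusted p = 0.0656 to 0.135). Maff was low, with means of 2.28 TPM in control, 3.15 with DTPA, 1.75 with DFO and 2.53 with SA. None of its changes against control passed as deposited, but with voom on recovered reads the DTPA change was 0.59 (adjusted p = 0.034). In DTPA against DFO, Nfe2 and Maff were each called higher with DTPA as deposited. Nfe2l3 was listed at 0 in every library, and Bach2 was above 0 in 1 control library only, at 0.0144 TPM.

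**Figure D3:**
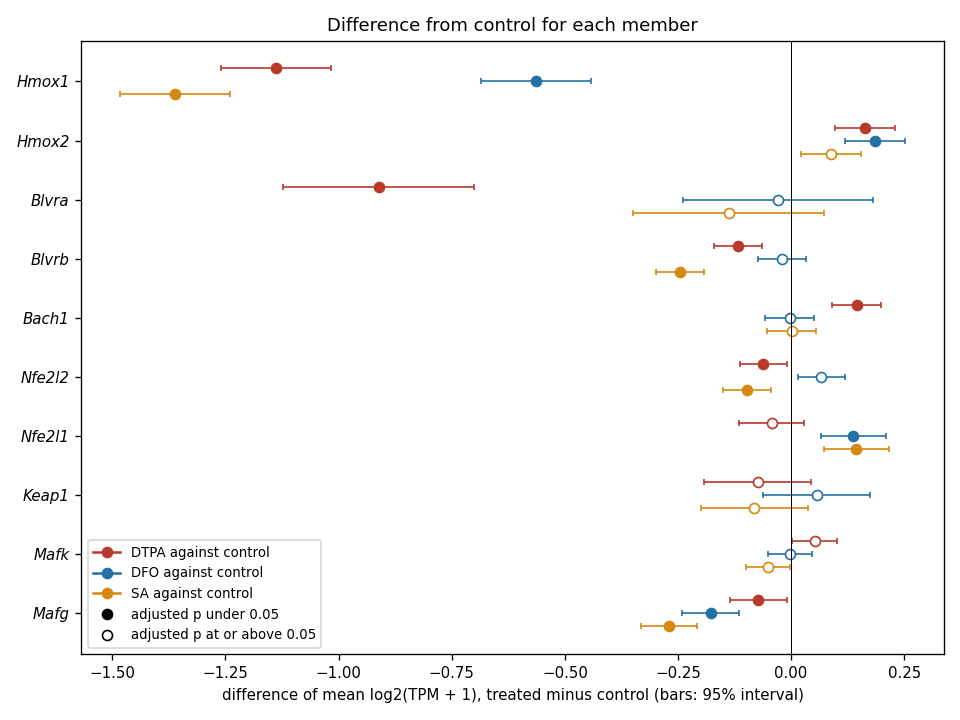
Difference of mean log2(TPM + 1) from control for each gene on the x axis, with 95% intervals as bars; filled points have an adjusted p under 0.05. Hmox1 is lowest in all 3 comparisons (-1.14, -0.56 and -1.36) and Blvra stands apart only with DTPA (-0.91), while the filled DTPA points of Blvrb, Nfe2l2 and Mafg change sign after scaling.

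Over the 10 genes, 2 were called higher and 5 lower with DTPA, against 65.5% of all tested genes called, 23.5% of them higher and 42.1% lower. With DFO 2 were higher and 2 lower, against 10.7% called (8.39% higher, 2.28% lower). With SA 1 was higher and 4 lower, against 22.2% called (15.4% higher, 6.75% lower). After median-of-ratios scaling the counts were 5 higher and 2 lower with DTPA, 1 and 2 with DFO, and 0 and 5 with SA. The count with DTPA, 7 of 10, is near the background share. Treated and control libraries did not overlap for 8 of the 10 genes with DTPA, 5 with DFO and 6 with SA, against 69.6%, 30.2% and 38.5% of all tested genes. Between treatments, 8 of 10 differed between DTPA and DFO (65.9% of all genes), 8 between DTPA and SA (67.1%) and 3 between DFO and SA (13.5%), the 3 being Hmox1, Blvrb and Nfe2l2. The Mafk call in DTPA against DFO (0.05, adjusted p = 0.0496) was lost without the filter, with the block, or without DTPA replicate 1 or 2 or any 1 DFO library (0.0528 to 0.153).

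Ranked by group mean as deposited, Hmox2 was highest with DFO, then DTPA, SA and control, and of these neighbours DTPA and SA differed (adjusted p = 0.0409). That call was lost without the filter (0.0529), with the replicate number as a block (0.0586), and without DTPA replicate 1 or 2 or any 1 SA library (0.0563 to 0.128). Blvra ran from control through DFO and SA to DTPA, with a difference at the last step. Blvrb ran from control through DFO and DTPA to SA, with the steps from DFO to DTPA, which turns round after scaling, and from DTPA to SA called. For Bach1 the step from DTPA down to SA was called, and SA, control and DFO were not told apart. Nfe2l2 ran from DFO through control and DTPA to SA, and its call between control and DTPA changes sign after scaling. Its step from DTPA to SA (0.04, adjusted p = 0.197) was 0.23 after either scaling (1.44e-06 and 1.49e-06) and 0.13 with voom (0.000104). Against control, DTPA was 0.07 higher after either scaling, and with voom the 0.015 difference did not pass (adjusted p = 0.636). Nfe2l1 ran from SA through DFO and control to DTPA, with a called step between DFO and control that is lost after scaling. No step passed the test for Keap1 or for Mafk, which ran from DTPA through control and DFO to SA. Mafg ran from control through DTPA and DFO to SA, with the steps on either side of DTPA called, the upper of them changing sign after scaling. Its step from DFO to SA (0.09, adjusted p = 0.0562) passed with a filter of 5 TPM (0.0476), without DFO replicate 2 (0.0125) and with voom (0.0373).

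**Figure D4:**
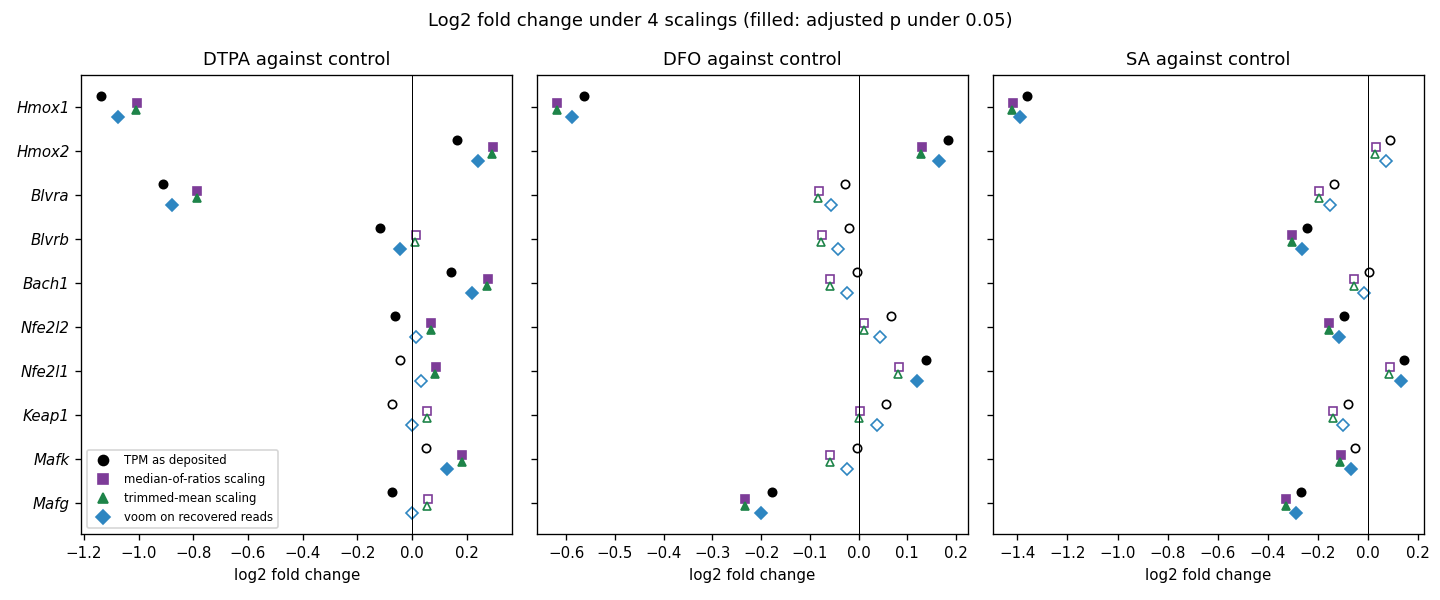
Log2 change against control of the 10 genes under 4 scalings, 1 panel a treatment, filled where the adjusted p is under 0.05. In the DTPA panel Blvrb, Nfe2l2, Nfe2l1, Keap1 and Mafg lie on opposite sides of 0 as deposited and after median-of-ratios or trimmed-mean scaling, whereas Hmox1 and Blvra lie below 0 and Hmox2, Bach1 and Mafk above 0 under all 4.

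Of 27 listed genes known as targets of BACH1 or NRF2, 21 passed the filter. With DTPA 15 fell and 3 rose, where 42.1% of all tested genes fell and 23.5% rose, and the median log2 change was -0.47 against -0.11 over all. With DFO 14 fell and 0 rose, where 2.28% of all fell (median -0.17 against 0.05). With SA 17 fell and 0 rose, where 6.75% of all fell (median -0.43 against 0.05). After median-of-ratios scaling the falls were 13, 15 and 18, and 4 rose with DTPA, while 3859, 646 and 1624 of the 11917 genes fell. With 1 library left out the falls were 14 to 15 with DTPA, 11 to 13 with DFO and 17 with SA. The DFO falls were 12 without the filter, where 25 listed genes were tested, and 12 with only the 6 libraries compared. The list is described by these counts, and the 3 comparisons share their control libraries.

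Nqo1, a quinone reductase, had 41.0, 35.4 and 37.9 TPM in control, 4.97, 7.40 and 6.09 with DTPA, 20.9, 21.5 and 21.0 with DFO, and 22.8, 21.6 and 23.0 with SA. All treated libraries lay below control, those with DTPA lowest. With DTPA it was 6.19-fold lower (log2 change -2.46, SE 0.10, adjusted p = 9.31e-10), and it was lower with DTPA than with DFO (-1.64, SE 0.10, adjusted p = 3.41e-08) or SA (-1.73, SE 0.10, adjusted p = 2.11e-08). Gclm, the regulatory subunit of the enzyme that starts glutathione synthesis, fell from 209 ± 2.69 TPM in control to 135 ± 4.39 with DTPA, 163 ± 0.997 with DFO and 130.3 ± 2.83 with SA. Its log2 changes were -0.63, -0.36 and -0.68 (adjusted p = 9.34e-10, 1.98e-05 and 3.94e-08). The catalytic subunit Gclc changed by -1.05, -0.24 and -0.44, and Txnrd1, thioredoxin reductase, by -1.32, -0.20 and -0.46, all called. Me1, malic enzyme, was 3.17-fold lower with DTPA and 2.37-fold lower with SA. Its DFO change of -0.36 (adjusted p = 0.0241) was lost without control replicate 2 or 3 or DFO replicate 1 or 2.

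Srxn1, sulfiredoxin, which repairs oxidised peroxiredoxins, went in opposite directions. It had 73.9, 67.4 and 73.6 TPM in control, 85.3, 86.3 and 88.3 with DTPA, 42.2, 43.2 and 41.7 with DFO, and 32.6, 30.3 and 29.1 with SA. The groups did not overlap. It rose with DTPA (0.27, SE 0.04, adjusted p = 0.000194) and fell with DFO (-0.74, SE 0.04, adjusted p = 1.09e-05) and SA (-1.20, SE 0.04, adjusted p = 3.94e-08), and the difference between DTPA and SA was 1.47 (adjusted p = 8.02e-11). The other targets that rose with DTPA, named after their values were seen, were Abcc1, an exporter (10.7 to 21.4 TPM, log2 change 0.93), and Slc40a1, the iron exporter ferroportin (19.2 to 23.9 TPM, 0.31). Of the ferritin subunits, Ftl1 changed by -0.30, -0.25 and -0.43 with DTPA, DFO and SA, all called. The DFO call of Ftl1 was lost without the filter (adjusted p = 0.068). Fth1 changed by -0.12, -0.13 and -0.21, all called as deposited, but its DTPA value turned to 0.02 and 0.01 under the 2 scalings. Both were named after their values were seen.

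**Figure D5:**
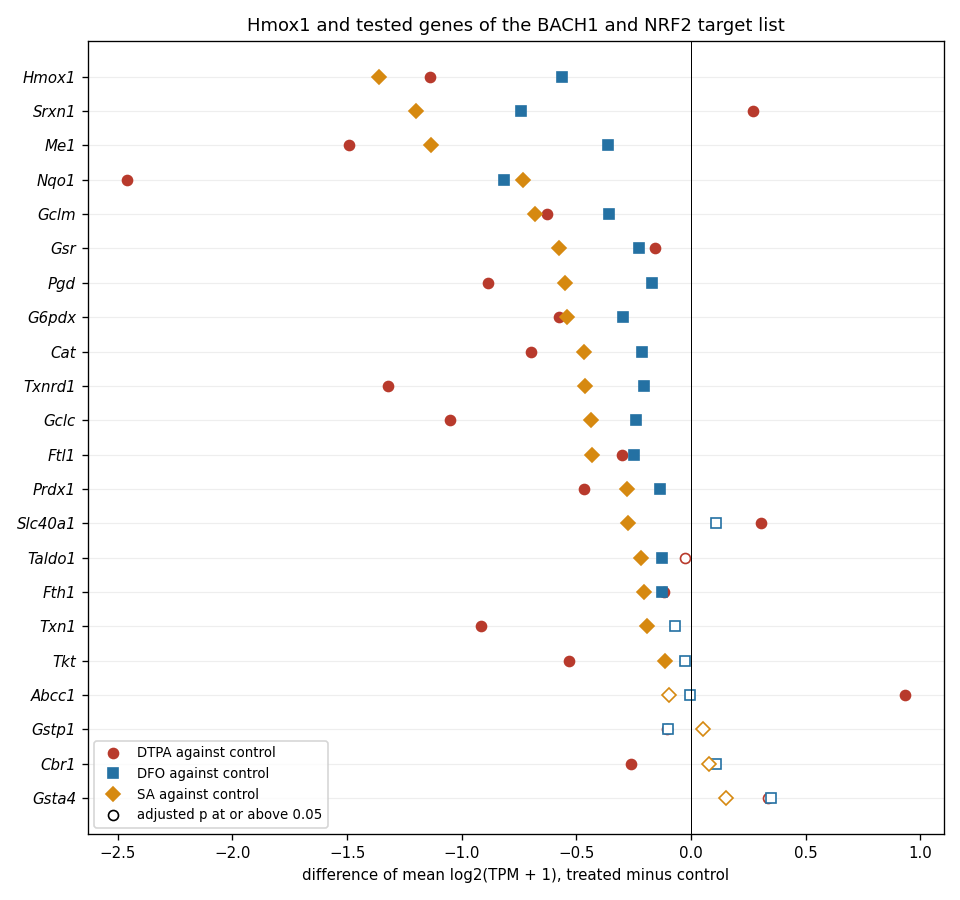
Difference of mean log2(TPM + 1) from control for Hmox1 and the 21 tested targets, ordered by the SA value, with open symbols where the adjusted p is 0.05 or more. Most symbols lie left of 0, Nqo1 with DTPA farthest (-2.46), and Srxn1 has its DTPA symbol right of 0 (0.27) and its SA symbol at -1.20; the Fth1 DTPA value changes sign after scaling.

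Of 5 listed partners of heme breakdown, Slc48a1, which carries heme out of endosomes and lysosomes, had 134, 130.0 and 137 TPM in control, 252, 254 and 252 with DTPA, 118, 115 and 114 with DFO, and 90.6, 90.1 and 88.8 with SA. The groups did not overlap. It was 1.89-fold higher with DTPA (0.91, SE 0.02, adjusted p = 1.11e-11) and lower with DFO (-0.21, adjusted p = 0.000253) and SA (-0.57, adjusted p = 4.53e-08). Flvcr1, described as a heme exporter, had means of 44.8 ± 2.16 TPM in control, 79.7 ± 1.64 with DTPA, 38.8 ± 1.64 with DFO and 33.5 ± 2.52 with SA. Its changes were 0.82 (adjusted p = 6.54e-08), -0.20 (adjusted p = 0.0327) and -0.41 (adjusted p = 0.000236), and that with DFO was lost without control replicate 1 or 2 or DFO replicate 2 or 3. Por, the reductase that feeds electrons to heme oxygenase, fell with DTPA (-0.22) and SA (-0.18). Pgrmc2, a heme-binding membrane protein, fell with DTPA (-0.40, adjusted p = 1.15e-06). Over the list, 2 rose and 2 fell with DTPA, where 65.5% of all tested genes were called, so 4 of 5 is near that share. With DFO 0 rose and 2 fell (10.7% of all called), and with SA 0 rose and 4 fell (22.2%). After median-of-ratios scaling 2 rose and 2 fell with DTPA, and 3 fell with DFO and 4 with SA. With 1 library left out, 1 to 2 fell with DFO and 3 to 4 with SA. The SA call of Pgrmc1 (-0.30) was lost without the filter and with only the 6 libraries compared. It was also lost without any 1 control library or SA replicate 1 or 2.

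Of 12 listed genes for turnover of BACH1, NRF2 and NRF1, 5 rose and 6 fell with DTPA (65.5% of all tested genes called), 1 fell with DFO (10.7%) and 2 fell with SA (22.2%). After median-of-ratios scaling 5 rose and 3 fell with DTPA, 2 fell with DFO and 5 with SA. The gene called with DFO was Sqstm1, the adaptor p62 that binds KEAP1, at 312 ± 4.51 TPM in control, 383 ± 4.46 with DTPA, 294 ± 4.40 with DFO and 264 ± 4.87 with SA. It rose with DTPA (0.30, adjusted p = 8.96e-08) and fell with SA (-0.24, adjusted p = 1.02e-05). Its DFO change (-0.08, adjusted p = 0.0246) was lost without control replicate 2 or 3 or DFO replicate 1 or 3. Fbxl17, a ubiquitin ligase subunit that acts on BACH1, rose with DTPA (0.56, adjusted p = 0.000228), as did Ddi2, the protease that activates NRF1 (0.38, adjusted p = 3.78e-05). Rbx1, a core part of the KEAP1 ligase, fell with DTPA (-0.50, adjusted p = 3.6e-07), and so did Gsk3b, a kinase that marks NRF2 for degradation (-0.31, adjusted p = 7.72e-06). Vcp, which extracts NRF1 from the endoplasmic reticulum, fell with DTPA (-0.31) and SA (-0.35).

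The 20 listed proteasome genes, known as NRF1 targets, all fell with DTPA as deposited, where 42.1% of all tested genes fell, with a median of -0.49 against -0.11 over all, and 18 of 20 fell after median-of-ratios scaling. With DFO 3 fell (2.28% of all) and with SA 6 (6.75% of all). That scaling gave 9 and 14, where 646 and 1624 of the 11917 genes fell. Psmc4, an ATPase subunit of the proteasome cap, had 275, 269 and 271 TPM in control and 160.1, 171 and 162 with DTPA (log2 change -0.72, SE 0.03, adjusted p = 2.3e-09). Psma5, a core subunit, had means of 394 ± 10.4 TPM in control, 250.4 ± 8.70 with DTPA, 331 ± 13.2 with DFO and 297 ± 10.3 with SA, and fell with each treatment (-0.65, -0.25 and -0.41).

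The genes whose log2(TPM + 1) followed a member most closely over the 12 libraries were ranked among 8011 genes with a mean of at least 5 TPM. For Hmox1 they were Gclm (Pearson r = 0.976), Cyb5a, Arfgap3, Hsp90aa1 and G6pdx (0.962), of which Gclm and G6pdx are also on the target list. For Bach1 they were Sos2 (0.977), Atp8a1, B4galt1, Adpgk and Samd8. For Nfe2l2 they were Renbp (0.962), Tfrc, Map3k20, Rps27l and Cttn, and for Blvrb they were Sgsm3 (0.975), Hsp90ab1, Psmd11, Scfd1 and Ube2l6. The 12 points share 4 groups, so these values describe the order of the group means and carry no test.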

How the data were processed

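Polyadenylated RNA of 12 libraries was sequenced with a stranded kit, per the labels' protocols. The submitters' processing notes name HISAT2 2.1.0 and featureCounts on build mm10, besides Trimmomatic 0.33, edgeR and FastQC. Their settings and the annotation are not given in the sources at hand. The authors deposited TPM values, 1 table per library. Of 55487 rows, 234 carried 1 of 114 repeated symbols, each resolved to its most abundant copy.

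The filter required 1 TPM or more in 3 libraries or more and left 11917 genes. Limma 3.58.1 (R 4.3.3) was fitted to log2(TPM + 1) with group means as the only terms, all 12 libraries together, and a trended prior variance. The adjusted p is Benjamini and Hochberg's over all tested genes, with 0.05 as threshold. Fold changes as multiples and percent changes are ratios of mean TPM. Gene positions and exon lengths came from GENCODE M21. With those lengths 98.8% to 99.0% of low values were whole reads, giving the depths printed. No replicates were identical, and pairs varied more than counting error allows (chi-square from 2.04 to 5.61 per degree of freedom).

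All 10 members were named. From each other list up to 4 called genes per treatment were eligible, by size of change, with a mean of at least 1 TPM, as were all relatives of the factor family and the 5 genes most like Hmox1, Bach1, Nfe2l2 and Blvrb; some eligible names were left out for length. The members and lists were chosen with earlier results of these data known. Tables were read with Python 3.11.15, pandas 2.3.3, numpy 2.4.6 and scipy 1.17.1, and plots made with matplotlib 3.10.9. Alternatives changed the pseudocount (0.1 or 5), the filter (none or 5 TPM) or the scaling (median-of-ratios or trimmed-mean). Others fitted just the 6 libraries compared, blocked on replicate number, left out each library, or used voom on recovered reads.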

Additional observations from a re-analysis of the deposited data

How the results depend on the processing

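Hmox1, Hmox2 and Blvra kept their calls against control, and Bach1 its DTPA call, under all 9 other settings and each left-out library. Over the members, their relatives, the tested targets and the other genes eligible for naming, 83 values changed sign under some alternative, 48 of them of members, and 18 of the 83 belonged to results called as deposited. The called results that changed sign were, against control with DTPA, Blvrb (0.015 after median-of-ratios and 0.013 after trimmed-mean scaling), Nfe2l2 (0.071 and 0.069, voom 0.015), Mafg (0.059 and 0.057, voom 0.0014) and Fth1 (0.017 and 0.014). In DTPA against DFO they were Blvrb (0.091 and 0.090), Nfe2l2 (0.060 and 0.059) and Nfe2l1 (0.0050 and 0.0039), and in DTPA against SA Nfe2l1 (0.0012 and 0.00069). Uncalled values that changed sign under the same scalings were, with DTPA, Nfe2l1 (0.088 and 0.086, voom 0.033), Keap1 (0.056 and 0.054), Gstp1 (0.018 and 0.016), Pgrmc1 (0.074 and 0.072, voom 0.022) and Taldo1 (0.106 and 0.104, voom 0.048). With DFO they were Ddi2 (-0.022 and -0.023) and Fbxl17 (-0.0023 and -0.0032), with SA Bach1 (-0.056 and -0.058, voom -0.016) and Gstp1 (-0.0028 and -0.0043), and in DTPA against DFO Hmox2 (0.166 and 0.165, voom 0.076) and Keap1 (0.054 and 0.053). Leaving out 1 library gave, against control with DFO, -0.031 to 0.019 for Abcc1, -0.030 to 0.012 for Bach1, -0.089 to 0.056 for Blvra, -0.019 to 0.073 for Ddi2, -0.030 to 0.107 for Fbxl17, -0.21 to 0.015 for Gstp1, -0.014 to 0.011 for Mafk and -0.049 to 0.0081 for Rbx1. With SA it gave -0.014 to 0.013 for Bach1, -0.0068 to 0.130 for Fbxl17, -0.032 to 0.0037 for Gsk3b, -0.11 to 0.41 for Gsta4, -0.059 to 0.127 for Gstp1 and -0.058 to 0.27 for Maff, and with DTPA -0.27 to 0.0013 for Gstp1. Between treatments it gave -0.032 to 0.011 for Bach1 and -0.030 to 0.0083 for Nfe2l1 in DFO against SA, -0.044 to 0.0027 for Hmox2 in DTPA against DFO, and -0.031 to 0.054 for Keap1 in DTPA against SA. The Blvrb share with DFO differed from control by -0.070 to 0.060 percentage points. All genes called with DFO numbered 1272, but 802 with only the 6 libraries compared and 843 to 960 with 1 library left out, where fewer samples enter. The members called in DFO against SA numbered 3, and 5 with a filter of 5 TPM, where fewer genes are tested. Same-numbered libraries did not vary together (r from -0.043 to 0.054 over 18 pairs, 0 over 0.1). With the replicate number as a block, 5 members in place of 7 were called with DTPA, Nfe2l2 (adjusted p = 0.0621) and Mafg (adjusted p = 0.0587) being lost, and the 4 and 5 called with DFO and SA were as many as without it. Without the filter the calls lost included Mafg (adjusted p = 0.0564) and Nfe2 (0.0591) with DTPA and Me1 (0.0571) and Flvcr1 (0.0679) with DFO. Those of the proteasome gene Psma7 with DFO (0.0823) and of Pgrmc1 with SA (0.0789) were lost too. With only the 6 libraries compared the calls lost included Nfe2 with DTPA (0.0532) and Flvcr1 (0.0532) and Sqstm1 (0.0689) with DFO. Calls of the listed target Gsr with DTPA (0.0609) and DFO (0.0662) and of the target Pgd with DFO (0.0747) were also lost. So were those of Psma7 with DFO and of Pgrmc1 with SA. The cause of these changes in counts and calls was not tested. Of the 10 members, Blvra rests on the fewest reads.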
